A study of Homo sapiens with 18 samples.

Results

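The 3 CSMD genes, CSMD1, CSMD2 and CSMD3, were followed through 12 peak lists of 2 histone marks. They were 3 of the 20037 protein-coding genes of the RefSeq annotation used here. All 3 encode giant transmembrane proteins built from repeated CUB and sushi domains, and are best known from the brain. Each gene was taken from 3 kb upstream of its start to its end on GRCh38. CSMD1 spans 2.06 Mb of the short arm of chromosome 8 (chr8:2935361-4994914), CSMD2 spans 0.652 Mb of chromosome 1 (chr1:33513998-34165842), and CSMD3 spans 1.21 Mb of the long arm of chromosome 8 (chr8:112222928-113436939). All 3 lie on the minus strand. The genes were chosen by the readout, because CSMD1 carried one of the largest H3K27me3 increases of the deposited table. The contrast between the groups is therefore given as a description, with no test.

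The cells were V16D, a castration-resistant prostate cancer line derived from LNCaP. V16D/CTL cells carried a control lentivector and V16D/H19 cells a lentivector that overexpresses the long noncoding RNA H19, which the study's methods place under the CMV promoter. Chromatin of 3 biological replicates per group was immunoprecipitated for H3K4me3 and for H3K27me3, giving 3 libraries per group and mark, and 6 input libraries served peak calling. The lists measure no RNA, so neither the H19 level nor the expression of the CSMD genes can be read from them. All 6 luminal prostate markers examined (KLK2, KLK3, FKBP5, TMPRSS2, KRT8 and KRT18) had an H3K4me3 peak within 1 kb of the start in all 6 libraries, and H3K27me3 was called at the start of none of the 6.

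H3K27me3 is written by Polycomb repressive complex 2 and is known for covering silent developmental and neuronal genes in broad stretches. H3K4me3 forms narrow peaks at the starts of active or poised genes, and a start that carries both marks is called bivalent. In a bulk sample, fewer cells with a mark and less of it per cell cannot be told apart.

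The H3K4me3 lists held 20000 to 21892 peaks and covered 28.73 to 31.32 Mb. The H3K27me3 lists held 54956 to 72177 peaks and covered 44.92 to 62.01 Mb in V16D/CTL and 42.13 to 48.26 Mb in V16D/H19. Most H3K27me3 peaks were weak, since only 0.901%, 0.89% and 0.938% of those in the V16D/CTL lists and 0.233%, 0.239% and 0.287% of those in the V16D/H19 lists reached a −log10 q of 5. Read depth is not used here, so a gene without a peak was below the calling threshold of that library and not shown to lack the mark.

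The starts of all 3 genes lay under H3K27me3 in both groups, and CSMD2 alone of the 3 also carried H3K4me3 there. An H3K27me3 peak within 1 kb of the start was called in all 6 libraries at CSMD1, CSMD2 and CSMD3. Among protein-coding genes with a known strand 1235 of 19121 (6.46%) had this, and among genes of at least 500 kb 91 of 315 (28.9%). Both marks in all 6 libraries were found at the start of CSMD2, as at 563 genes (2.94%) overall and 50 (15.9%) of the giant genes. These calls used all listed peaks, whatever their q. The H3K4me3 peak at the CSMD2 start had a −log10 q of 5.95, 4.59 and 2.19 in V16D/CTL replicates 1, 2 and 3. A −log10 q of at least 3 would drop the peak of replicate 3, and one of 5 also that of replicate 2. All 3 V16D/H19 peaks there were above 5. CSMD1 and CSMD3 had no H3K4me3 peak within 1 kb of the start in any library. H3K27me3 at the start in all 6 libraries without H3K4me3 in any was found at 424 genes (2.22%) overall and 20 (6.35%) of the giant genes.

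The merged H3K27me3 site over the CSMD1 start was 9.05 kb wide (chr8:4988896-4997944) and reached from 3.03 kb upstream to 6.02 kb inside the gene. Peaks covered 4.58, 5.55 and 7.76 kb of it in V16D/CTL against 5.25, 7.23 and 7.36 kb in V16D/H19, and these ranges overlapped. At the CSMD2 start the site was 9.04 kb wide (chr1:34159844-34168879), with 6.88, 6.51 and 8.6 kb covered in V16D/CTL against 4.88, 5.78 and 5.35 kb in V16D/H19. All V16D/H19 libraries were thus below all V16D/CTL libraries at CSMD2, with means of 5.34 ± 0.449 and 7.33 ± 1.12 kb (SD, n = 3). The CSMD3 start had a site of 7.91 kb (chr8:113429865-113437777), covered over 7.36, 7.38 and 7.27 kb in V16D/CTL against 6.41, 6.4 and 6.06 kb in V16D/H19. Here too the groups did not overlap, and the V16D/H19 mean was lower by 1.05 kb. Of the 10889 H3K27me3 sites with a peak in all 6 libraries, 17.2% were lower in V16D/H19 without overlap, so this pattern was common in these lists. The strongest peak within each of the 3 sites stood 3.99-fold to 5.66-fold over input in every library.

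**Figure D1:**
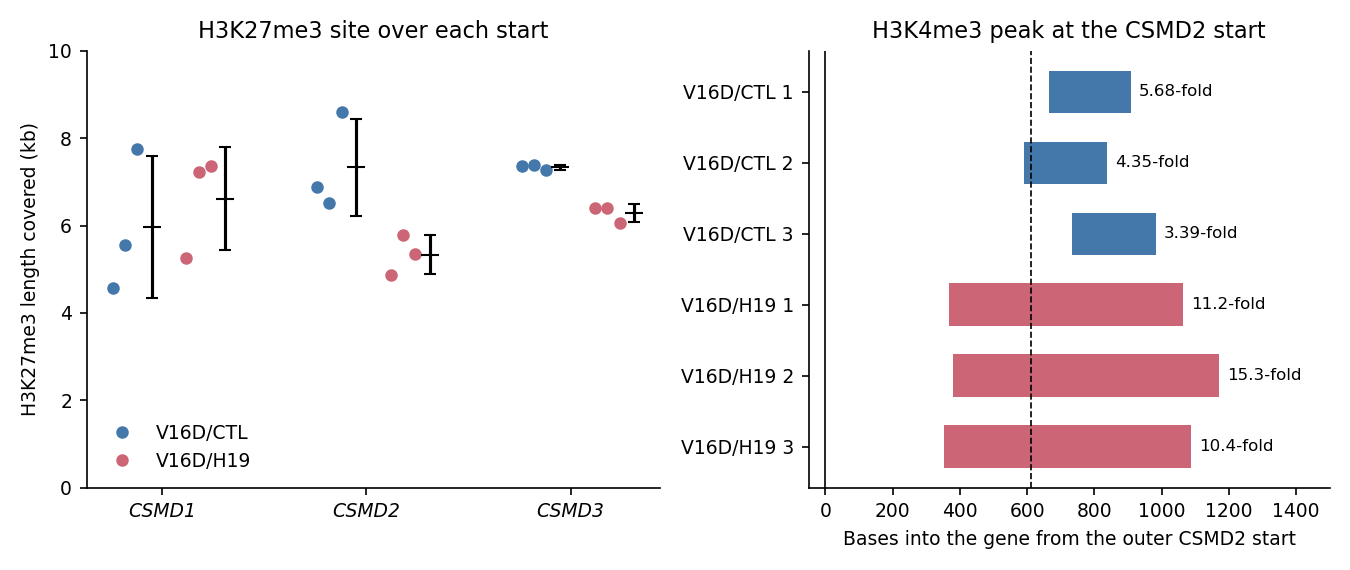
Left: kilobases covered by H3K27me3 peaks in the merged site over the start of each CSMD gene, for the 3 libraries of each group (points, with the mean and SD in black); V16D/H19 lies below V16D/CTL at CSMD2 and CSMD3 and overlaps it at CSMD1. Right: extent of the H3K4me3 peak at the CSMD2 start in each library, in bases from the outer RefSeq start (solid line), with the inner RefSeq start dashed and the fold over input printed beside each bar; the peaks span 244 to 248 bases in V16D/CTL and 697 to 792 bases in V16D/H19.

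H3K4me3 at the CSMD2 start was wider and stronger over input in V16D/H19. The peak there spanned 244, 248 and 247 bases in V16D/CTL against 697, 792 and 736 bases in V16D/H19, all inside chr1:34164672-34165490. Its fold over input was 5.68, 4.35 and 3.39 in V16D/CTL against 11.2, 15.3 and 10.4 in V16D/H19. Both measures were higher in all 3 V16D/H19 libraries than in any V16D/CTL library. Mean width was 742 ± 47.8 bases in V16D/H19 against 246 ± 2.08 in V16D/CTL. Mean fold was 12.3 ± 2.64 against 4.47 ± 1.15 (SD, n = 3). The share of all H3K4me3 sites with such a difference in width or fold was not counted. The deposited H3K4me3 table listed the same place (chr1:34164506-34165496, annotated as promoter within 1 kb), where the authors' mean was 3.72 in V16D/CTL against 5.43 in V16D/H19 on the log2 scale, a difference of 1.71. That table rests on these same libraries, so the row adds no separate support.

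RefSeq places CSMD2 starts at 34165842 and at 34165230. The 3 V16D/H19 peaks and that of V16D/CTL replicate 2 spanned the inner start, and the peaks of V16D/CTL replicates 1 and 3 lay just inside the gene from it. Of the 250 bases upstream of the inner start, the V16D/H19 peaks covered 245, 233 and 250 and the V16D/CTL peaks 0, 21 and 0. No H3K4me3 peak of any library touched the 250 bases upstream of the outer start. The inner stretch is printed because it is the promoter sequence that the wider peaks of V16D/H19 took in. It is chr1:34165231-34165480, minus strand, RefSeq GRCh38.p14, and the capitals mark the 21 bases next to the start that the peak of V16D/CTL replicate 2 reached.
CSMD2 inner promoter: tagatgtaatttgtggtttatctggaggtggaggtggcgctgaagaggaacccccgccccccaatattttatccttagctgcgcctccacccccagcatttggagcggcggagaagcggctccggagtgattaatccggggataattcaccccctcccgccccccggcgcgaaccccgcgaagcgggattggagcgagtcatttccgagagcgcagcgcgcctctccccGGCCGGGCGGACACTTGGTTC
It holds 23 CG dinucleotides and is 62.4% G or C, and 25.8% of the 35116 RefSeq promoter stretches of that length hold at least as many CG. The table used for promoters has no entry for CSMD1 or CSMD3.

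Over each whole gene, its start included, H3K4me3 was sparse. CSMD1 had 3, 3 and 3 H3K4me3 peaks in V16D/CTL against 5, 5 and 4 in V16D/H19, which covered 2.417, 2.131 and 2.19 kb against 2.937, 3.065 and 2.604 kb. The V16D/H19 values were all higher, with means of 2.869 ± 0.238 and 2.246 ± 0.151 kb (SD, n = 3). CSMD2 had 0.244, 0.248 and 0.545 kb in V16D/CTL against 1.15, 1.226 and 0.987 kb in V16D/H19, again without overlap. The means were 0.3457 ± 0.173 and 1.121 ± 0.122 kb, of which the start peak described above made up 246 and 742 bases. An H3K4me3 difference in this direction without overlap was found at 8.32% of the 13963 protein-coding genes with a peak and at 17.5% of the 302 giant genes with one. CSMD3 had no H3K4me3 peak in V16D/CTL, and had 0, 2 and 1 in V16D/H19, covering 0, 0.531 and 0.215 kb, so the groups touched at 0.

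The strongest H3K4me3 peak of CSMD1 lay deep in the gene, 1812 kb from the annotated start (chr8:3181633-3183204). It was called in all 6 libraries at 31.3-fold, 25.5-fold and 29.6-fold over input in V16D/CTL against 36.2-fold, 27.1-fold and 23.2-fold in V16D/H19, and the means of 28.8 did not separate the groups. The annotation in the deposited table ends a shorter CSMD1 transcript at 3183146, inside this peak, and on the minus strand that end is the transcript's start. Neighbouring H3K4me3 peaks at chr8:3183618-3184167 and chr8:3284180-3284743 were also called in all 6 libraries. No H3K27me3 peak overlapped any of these 3 places in any library.

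A weaker H3K4me3 site 140.4 kb inside CSMD1 (chr8:4854220-4854881) was called in 3 of 3 V16D/H19 and 0 of 3 V16D/CTL libraries, at 4.79-fold, 4.88-fold and 6.23-fold over input. It was the only H3K4me3 site of the 3 genes with that pattern, among 7 sites called in at least 2 libraries, and 0.901% of all 20655 such sites had it. At CSMD2 an H3K4me3 peak 73.43 kb inside the gene (chr1:34092169-34092661) was called in 1 of 3 V16D/CTL and 3 of 3 V16D/H19 libraries. The H3K4me3 peaks of CSMD3 were each called in 1 library, including a 215-base peak 1.99 kb inside the gene in V16D/H19 replicate 3 at 4.15-fold over input.

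H3K27me3 covered more of CSMD1 in V16D/H19 than in V16D/CTL, and did not separate the groups at CSMD2 or CSMD3. CSMD1 had 75, 96 and 109 H3K27me3 peaks in V16D/CTL against 143, 164 and 169 in V16D/H19. They covered 42.99, 55.33 and 68.3 kb in V16D/CTL against 74.91, 102.0 and 107.1 kb in V16D/H19. Every V16D/H19 library lay above every V16D/CTL library, with means of 94.67 ± 17.3 and 55.54 ± 12.7 kb (SD, n = 3), a ratio of 1.7. This contrast chose the gene, so the background of 2.41% of 5398 protein-coding genes and 6.32% of 285 giant genes that were higher without overlap is given beside it and nothing is read from it. Per Mb covered in the same list, CSMD1 took up 1.0 ± 0.0873 kb in V16D/CTL against 2.05 ± 0.238 kb in V16D/H19. The number of peaks separated the groups and their size did not. Their median fold over input was 3.34 ± 0.113 in V16D/CTL against 3.357 ± 0.0462 in V16D/H19 and their median width 450.0 ± 31.2 and 480.7 ± 40.1 bases.

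Few of these peaks were strong. Between 2 and 7 of them per library reached a −log10 q of 3. With such peaks alone the difference in covered length at CSMD1 was 0.774 kb, and with a −log10 q of 5 no peak of the gene was left.

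CSMD2 had 71, 91 and 108 H3K27me3 peaks in V16D/CTL against 84, 92 and 99 in V16D/H19. They covered 58.09, 69.4 and 89.37 kb against 62.69, 67.41 and 71.23 kb, and the V16D/H19 values lay within the range of V16D/CTL. The mean difference of −5.18 kb became 3.36 kb without V16D/CTL replicate 3, and 7.91 kb when each library was scaled to the length its list covers, so CSMD2 had no stable direction. CSMD3 had 28, 41 and 51 peaks in V16D/CTL against 25, 31 and 39 in V16D/H19, covering 20.7, 29.02 and 35.32 kb against 18.45, 19.57 and 23.61 kb. These ranges overlapped, although each V16D/H19 library was below the V16D/CTL library of the same number. The widest H3K27me3 peak of CSMD3 measured 7.36, 7.04 and 7.27 kb in V16D/CTL against 5.94, 5.28 and 5.03 kb in V16D/H19, and that of CSMD2 6.88, 4.15 and 7.52 kb against 3.07, 2.73 and 3.29 kb. The share of all genes whose widest peak differed in this way was not counted, so nothing is read from these widths.

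**Figure D2:**
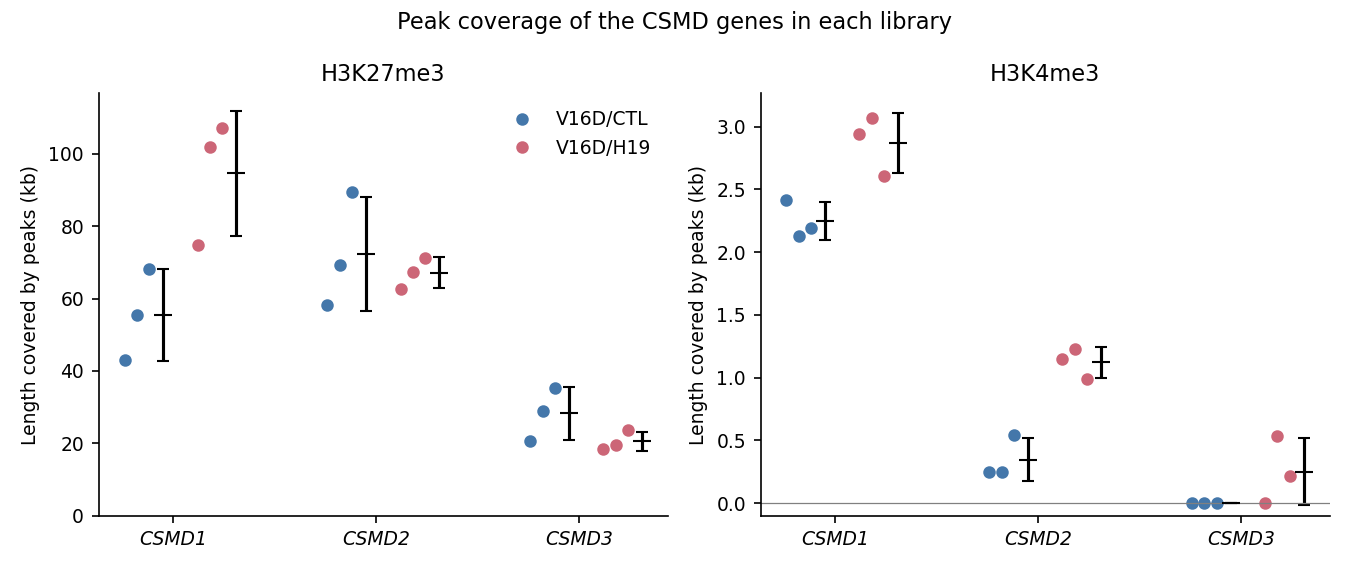
Kilobases of each CSMD gene (from 3 kb upstream to its end) covered by H3K27me3 peaks (left) and H3K4me3 peaks (right) in each library, as points for the 3 libraries of a group with the mean and SD in black. H3K27me3 separates the groups at CSMD1 only, and H3K4me3 at CSMD1 and CSMD2.

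The added H3K27me3 of CSMD1 lay away from its start. In 100-kb bins counted from the start, H3K27me3 was densest over the first 500 kb of the gene in both groups, a split chosen after the values were seen. There the peaks covered 35.9, 44.9 and 50.7 kb in V16D/CTL against 41.7, 54.9 and 53.9 kb in V16D/H19, which overlapped. Over the remaining 1560 kb they covered 6.55, 9.38 and 15.5 kb in V16D/CTL against 32, 45.1 and 51.0 kb in V16D/H19. The lowest V16D/H19 library was above the highest V16D/CTL library there, and the means were 42.7 ± 9.74 and 10.5 ± 4.6 kb (SD, n = 3), a ratio of 4.07. In this stretch 0.673% of the bases were covered in V16D/CTL against 2.74% in V16D/H19, while in the first 500 kb the shares were 8.76% and 10.0%.

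Of the 21 bins of CSMD1, 9 were higher in V16D/H19 without overlap, 1 was lower and 11 overlapped. All 9 lay beyond 500 kb, and the lower one was the bin from 100 to 200 kb, with 11.94, 11.9 and 13.68 kb covered in V16D/CTL against 6.336, 11.6 and 11.66 kb in V16D/H19. Over all chromosomes 3.58% of the 14713 bins with a peak were higher without overlap and 14.5% lower, and on chromosome 8 before 45 Mb outside CSMD1 10.1% of 277 were higher. This contrast chose CSMD1, so these shares are given beside its bins and nothing is read from them. Coverage in V16D/CTL was near 0 in some of the higher bins, such as 0.294, 0 and 0 kb from 1500 to 1600 kb. The bin from 1700 to 1800 kb had the most beyond 600 kb, with 1.57, 2.647 and 2.364 kb in V16D/CTL against 5.224, 10.32 and 8.717 kb in V16D/H19. CSMD2 had no bin out of 7 whose groups did not overlap, and its densest bins lay between 400 and 600 kb from the start. CSMD3 had 1 higher and 1 lower bin out of 13, and beyond its first bin no group mean passed 3.152 kb per bin.

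**Figure D3:**
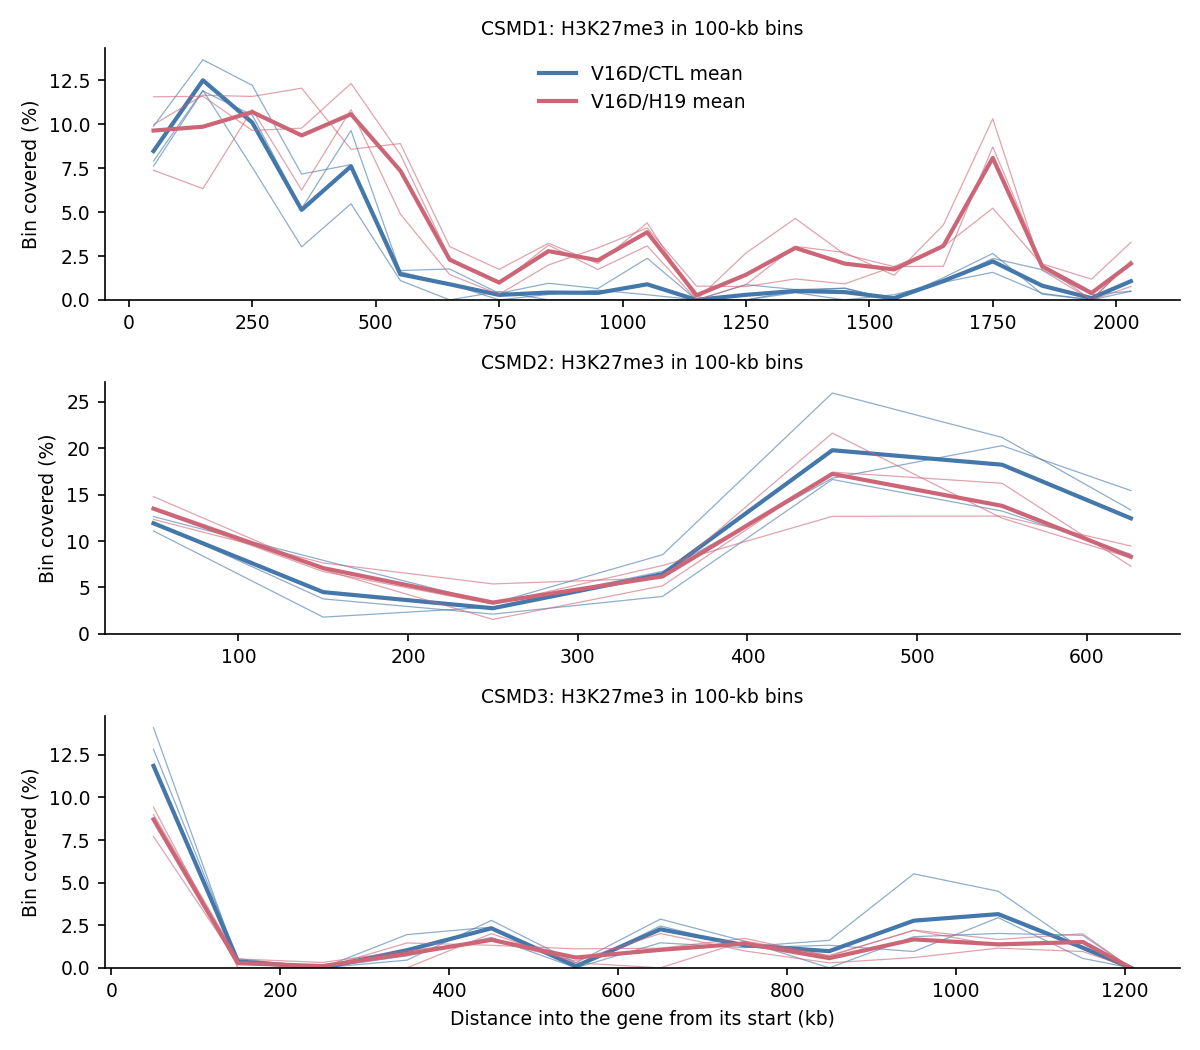
Percent of each 100-kb bin covered by H3K27me3 peaks along CSMD1, CSMD2 and CSMD3, by distance in kb from the start of the gene; thin lines are the 3 libraries of each group and thick lines their means. In CSMD1 the V16D/H19 mean is above the V16D/CTL mean in 20 of the 21 bins, the exception being the bin from 100 to 200 kb.

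Merging the lists gave 135 H3K27me3 sites in CSMD1 with a peak in at least 2 libraries, 100 in CSMD2 and 37 in CSMD3, of which 13, 15 and 2 had a peak in all 6. In CSMD1, 7 sites were called in all 3 V16D/H19 and no V16D/CTL library and 1 site the other way round. CSMD2 had 2 sites and CSMD3 1 site called in V16D/H19 alone, and neither had one called in V16D/CTL alone. Over all 58679 H3K27me3 sites the shares were 0.976% for V16D/H19 and 1.97% for V16D/CTL. This contrast chose CSMD1, so the shares are given beside its counts and nothing is read from them. The 7 CSMD1 sites lay between 330.3 and 1775 kb from the start, 6 of them beyond 500 kb, and the widest was chr8:3995809-3998305, at 3.49-fold to 3.76-fold over input. Leaving out V16D/H19 replicate 1, 2 or 3 raised the V16D/H19 count over the 3 genes from 10 to 29, 24 or 20. With a library fewer the rule is looser, so a rise was built in and shows no dependence on a single library.

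The deposited H3K27me3 table listed 10 rows for CSMD1, 9 with a higher authors' mean in V16D/H19 and 1 with a lower one, where the whole table held 97 higher and 1043 lower rows. No other symbol had more than 5 higher rows. Rows outside a gene can carry its symbol, and the counts were not scaled to gene length. Of all H3K27me3 sites, 0.324% overlapped a higher row and 2.83% a lower row, and 13 of the 135 CSMD1 sites overlapped a higher one. CSMD1 was chosen from this table, so its counts follow from the choice and nothing is read from them. A wide row can also overlap several sites. The largest difference was at chr8:3641664-3650162, an intronic row with authors' means of 3.33 in V16D/CTL against 5.32 in V16D/H19 (log2), a difference of 1.99. No peak of any of the 6 H3K27me3 lists overlapped this row, as was the case for 9 of the 1140 rows of the table. The next was chr8:3692124-3700075, also intronic, at 3.9 and 5.59, where no V16D/CTL library and all 3 V16D/H19 libraries had a peak, covering 0.808, 0.414 and 0.992 kb.

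Several rows were wide. At chr8:3217583-3237519, an exonic row with authors' means of 6.67 and 7.42, peaks covered 0.53, 1.81 and 0.294 kb in V16D/CTL against 1.89, 5.8 and 4.05 kb in V16D/H19. At chr8:3354091-3377612 the authors' means were 6.22 and 7.08. The single lower CSMD1 row, chr8:4810324-4815388 in the first intron, had authors' means of 5.94 in V16D/CTL against 5.14 in V16D/H19. Of the 9 higher rows, chr8:2882325-2898714 lay beyond the end of the gene and chr8:5535852-5544391 upstream of its start (midpoint at −545.2 kb), so 7 higher rows overlapped the gene itself.

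**Figure D4:**
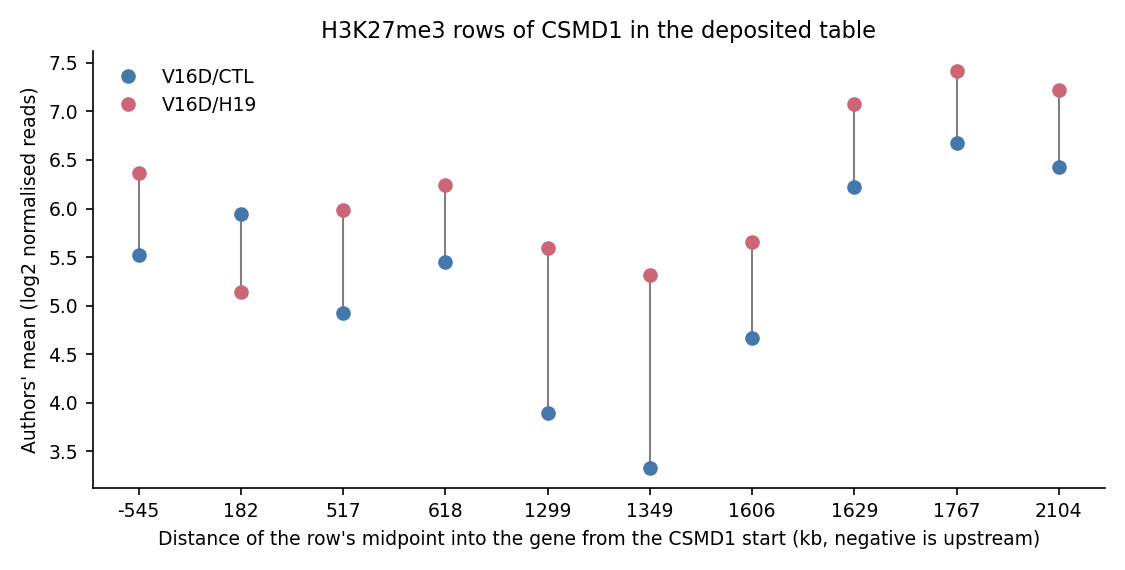
The authors' mean concentration (log2 normalised reads) in V16D/CTL and V16D/H19 for the 10 H3K27me3 rows named CSMD1 in the deposited table, ordered by the distance of the row's midpoint from the CSMD1 start in kb (negative is upstream). V16D/H19 is the higher of the pair in 9 rows and the lower in the row at 182 kb; the table gives no value per library.

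CSMD2 had 1 H3K27me3 row, chr1:33544192-33547137, an exonic place with authors' means of 5.09 in V16D/CTL against 3.88 in V16D/H19. Peaks covered 1.03, 1.4 and 1.24 kb of it in V16D/CTL against 0.567, 0 and 0.295 kb in V16D/H19, without overlap. Listed places are those the authors found to differ between these same libraries, so this adds no support. CSMD3 had 2 rows, both lower in V16D/H19, at chr8:114207110-114219714 (7.09 and 6.38) and chr8:114233244-114240878 (6.55 and 5.86). Their midpoints lay at −776.5 and −800.1 kb from the start, outside the gene, so no row overlapped CSMD3 itself. H3K4me3 rows were listed for CSMD2 alone, with 1 higher row, beside 445 higher and 1412 lower H3K4me3 rows in all. Of all H3K4me3 sites, 2.2% overlapped a higher row.

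The H3K27me3 of the chromosome around CSMD1 and CSMD3 is given beside these values. On chromosome 8 before 45 Mb, without CSMD1, H3K27me3 peaks covered 1023, 1329 and 1358 kb in V16D/CTL against 1202, 1415 and 1393 kb in V16D/H19, a ratio of means of 1.08. Beyond 45 Mb, without CSMD3, they covered 2780, 3630 and 3784 kb against 2392, 2573 and 2668 kb, a ratio of 0.749, and over all chromosomes the ratio was 0.832. In the 1 Mb upstream of CSMD1, H3K27me3 covered 26.41, 39.6 and 49.41 kb in V16D/CTL against 39.64, 66.33 and 56.54 kb in V16D/H19. In the 1 Mb downstream the values were 114.6, 140.4 and 139.0 kb against 146.0, 150.8 and 151.4 kb. The 1 Mb upstream of CSMD3 went the other way, with 18.35, 23.65 and 26.13 kb against 11.78, 12.4 and 8.609 kb.

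Other giant genes of chromosome 8 and the deposited rows were counted on both sides of 45 Mb. All 6 other giant genes before 45 Mb had a higher H3K27me3 mean in V16D/H19. The smallest of these differences was 0.0% covered in V16D/CTL against 0.0186% in V16D/H19. Of these 6, only the growth factor gene NRG1 did not overlap between groups. Of the 9 other giant genes beyond 45 Mb, 2 had a higher mean and 6 a lower one. Among the lower ones, NKAIN3 (3.83% covered in V16D/CTL against 0.881%) and the kinase gene STK3 (1.66% against 1.24%) did not overlap between groups. Over all 285 giant genes with H3K27me3, 127 had a higher mean and 158 a lower one. Without overlap, 6.32% were higher and 14.0% lower. Apart from the rows of the CSMD genes, the H3K27me3 rows numbered 7 higher and 7 lower before 45 Mb and 0 higher and 81 lower beyond. The H3K4me3 rows numbered 35 higher and 7 lower before 45 Mb and 10 higher and 142 lower beyond. Over all chromosomes there were 445 higher and 1412 lower H3K4me3 rows, and 97 higher and 1043 lower H3K27me3 rows. The part of the chromosome's position in the CSMD1 and CSMD3 values was not tested.

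The level of H3K27me3 was highest at CSMD2. Over all 6 libraries peaks covered 10.6% ± 1.64 of CSMD2, 3.64% ± 1.23 of CSMD1 and 2.01% ± 0.537 of CSMD3 (SD, n = 6), against 1.64% ± 0.257 of all chromosomes. In V16D/CTL alone the means were 11.0%, 2.69% and 2.33%. The V16D/H19 values that led to the choice of CSMD1 enter its level, so its H3K27me3 level is given as a description with no test. Each gene was above the chromosomes in 6 of 6 libraries, by 9.0 percentage points for CSMD2, 2.0 for CSMD1 and 0.37 for CSMD3. In an exact two-sided sign-flip permutation test over the 6 libraries CSMD2 and CSMD3 each gave p = 0.0312, the smallest this design allows, and 0.0312 after Benjamini-Hochberg adjustment over 3 genes and 2 marks. CSMD2 exceeded CSMD3 by 8.63 points in 6 of 6 libraries (exact sign-flip p = 0.0312, adjusted p = 0.0312 over 3 pairs). CSMD2 exceeded CSMD1 by 7.0 points and CSMD1 exceeded CSMD3 by 1.63, in 6 of 6 libraries each. Same-numbered H3K27me3 libraries of the groups deviated together, less clearly for replicate 2. With same-numbered libraries averaged into 3 sets, each of these tests gave an adjusted exact p = 0.25, the smallest that 3 sets allow, so no H3K27me3 level passed 0.05.

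The levels of all 3 genes depended on the weak peaks. With a −log10 q of at least 3, CSMD2 exceeded the chromosomes by 0.847 points and CSMD3 by 0.308 points (adjusted exact p = 0.0375 each, over the 6 libraries), and CSMD2 exceeded CSMD3 by 0.538 points (adjusted exact p = 0.0312). CSMD1 then differed from the chromosomes by −0.0583 points and from CSMD3 by −0.367 points. With a −log10 q of at least 5, CSMD2 differed from the chromosomes by 0.062 points, CSMD3 from them by 0.053 points and CSMD2 from CSMD3 by 0.00907 points (adjusted exact p = 1.0 each). Against chromosome 8 in place of all chromosomes, CSMD1 differed by 0.638 points and CSMD3 by −0.995 points (adjusted exact p = 0.0375). These tests took the 6 libraries as separate. Over 3 averaged sets, as above, the exact sign-flip test cannot go below 0.25.

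H3K4me3 covered 0.124% ± 0.0187 of CSMD1, 0.112% ± 0.068 of CSMD2 and 0.0102% ± 0.0178 of CSMD3 (SD, n = 6), against 0.977% ± 0.0314 of all chromosomes. All 3 genes were below the chromosomes in 6 of 6 libraries (exact sign-flip p = 0.0312, adjusted p = 0.0312). The median of the 315 giant genes was 0.205%, also below the chromosomes. A low share is thus common among genes of this length, and the test does not set the 3 genes apart.

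Among the 315 protein-coding genes of at least 500 kb, where the median H3K27me3 coverage was 0.957%, CSMD2 ranked 15, CSMD1 68 and CSMD3 109. The 5 highest were the cadherin gene CDH4 (45.3%), the splicing regulator gene RBFOX3 (44.7%), DLGAP2 (29.3%), KALRN (23.3%) and CREB5 (20.6%). In H3K4me3 coverage CSMD1 ranked 212, CSMD2 222 and CSMD3 294. By the change in H3K27me3 coverage CSMD1 ranked 7 of 315 with 1.9 percentage points, where the median of the 285 giant genes with H3K27me3 was −0.0194 and the range −13.2 to 4.37. The H3K27me3 increase chose CSMD1, so its rank is a description. CSMD2 and CSMD3 changed by −0.791 and −0.641 points and ranked 32 and 38 counted from the largest decrease.

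**Figure D5:**
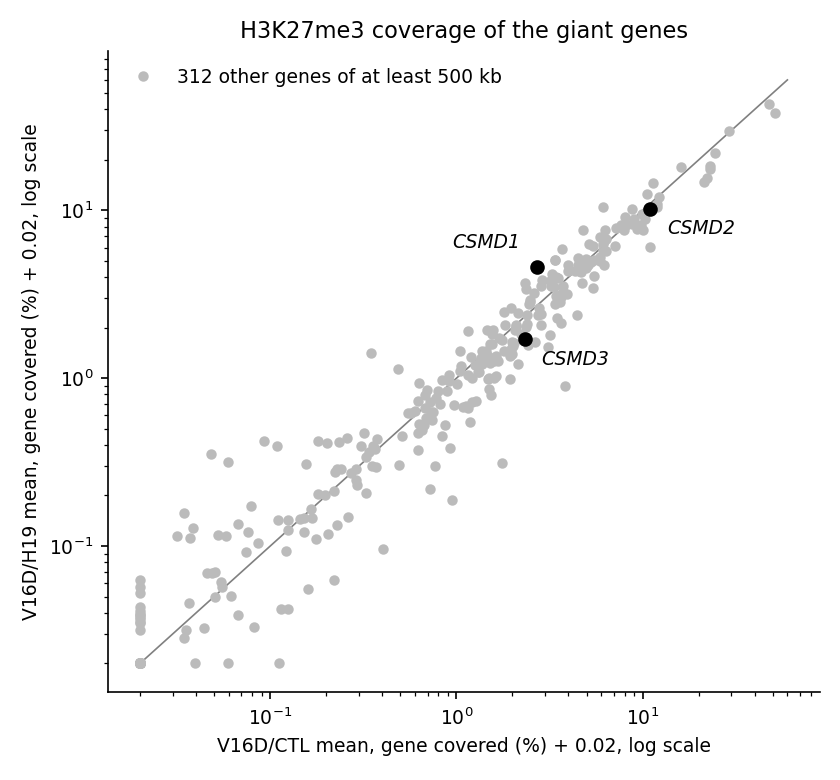
Mean percent of the gene covered by H3K27me3 peaks in V16D/CTL (horizontal) and V16D/H19 (vertical) for the 315 protein-coding genes of at least 500 kb, on log axes after adding 0.02; the line marks equal values. CSMD1 lies above the line at 2.69% and 4.59%, while CSMD2 and CSMD3 lie just below it.

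The giant genes nearest to each CSMD gene were found by the mean absolute difference in covered percent over the 12 lists. Nearest to CSMD1 was the alpha-catenin gene CTNNA3 (0.254 points apart, with H3K27me3 over 3.25% in V16D/CTL against 4.16% in V16D/H19), followed by SLC24A2 (0.274) and the neurexin gene NRXN3 (0.311). Nearest to CSMD2 were the calcium channel subunit gene CACNA2D3 (0.434), DPP6 (0.499) and FGF12 (0.577). Among those nearest to CSMD3 were the glutamate receptor gene GRM8 (0.169) and the sarcoglycan gene SGCD (0.184). None of these 8 genes lies on chromosome 8.

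Other genes with CUB or sushi domains were examined as a list. Of 12 relatives (SEZ6, SEZ6L, SEZ6L2, SUSD1 to SUSD6, NETO1, NETO2 and CDCP1), 8 had an H3K4me3 peak and 4 an H3K27me3 peak in some library. SUSD5 was the 1 relative whose groups did not overlap, and it went in opposite directions in the 2 marks. H3K4me3 covered 0.967 ± 0.043 kb of SUSD5 in V16D/CTL against 1.18 ± 0.0359 kb in V16D/H19, and H3K27me3 4.94 ± 0.582 kb and 3.3 ± 0.314 kb (SD, n = 3). The deposited tables, which rest on these same libraries and add no separate support, listed its promoter in both marks. The authors' means were 6.03 and 7.31 for H3K4me3 and 7.43 and 6.68 for H3K27me3 in V16D/CTL and V16D/H19. Among all protein-coding genes with a peak, 8.32% were higher without overlap in H3K4me3 and 15.9% were lower in H3K27me3.

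Complement genes, whose regulators share the sushi domain, were also examined. Of 20 complement genes, 10 had an H3K4me3 peak and 9 an H3K27me3 peak in some library, and none had H3K27me3 groups that did not overlap. In H3K4me3, CD46, a membrane regulator of complement, was higher in V16D/H19 (4.66 ± 0.564 against 3.83 ± 0.364 kb) and C1R, a protease of the first component, was lower (0.139 ± 0.12 against 0.318 ± 0.0638 kb), both without overlap. Each is 1 of the 10 genes with H3K4me3, and over all protein-coding genes with H3K4me3 8.32% were higher and 5.91% lower without overlap. The H3K4me3 table listed the promoter of CD55, another membrane regulator, with authors' means of 5.64 in V16D/CTL against 4.56 in V16D/H19.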

How the data were processed

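ChIP-seq peak lists of H3K4me3 and H3K27me3 in V16D/CTL and V16D/H19 cells (3 biological replicates per group and mark) were used as deposited. Per the labels the build was hg38 and the tools were MACS2, DiffBind and ChIPseeker; their versions and the aligner were not given in the sources used here. The authors called H3K4me3 peaks in narrow and H3K27me3 peaks in broad mode with MACS2, in each replicate against its own input. The deposited lists give the fold over input (a ratio) and the −log10 p-value and −log10 q-value of each peak. The deposited differential tables give the authors' group means on a log2 scale for sites under an FDR of 0.05; their fold, p-value and FDR columns hold the authors' own comparison and were not used. All columns with values used are group means, and 0 columns were left unmapped.

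The 3 genes, the gene lists and the 45 Mb split of chromosome 8 were chosen with earlier results of these data known. Gene positions came from RefSeq (GRCh38.p14; 19121 of 20037 protein-coding genes had a strand, taken by symbol from GENCODE). Peaks sharing at least 1 base with a window were counted, and covered length was the union of their bases inside it. Sites were merged peaks with a peak in at least 2 libraries. Chromosome lengths (3085 Mb in sum) were read from the last gene or peak end. Levels were compared by exact two-sided sign-flip permutation tests over 6 libraries. Genes were named when they were among the 3 members, the 3 nearest giant genes of each, the 5 giant genes with most H3K27me3, or list genes that were in a deposited table or did not overlap between groups; NRG1, NKAIN3 and STK3 were named after their values were seen. One gene named by this rule is not reported here. Alternatives were a −log10 q of at least 5, or 3 (added after seeing the data), lists cut to equal length, the gene body alone, scaling to covered length, same-numbered libraries averaged (added after seeing the data), and leaving out each library. Same-numbered libraries deviated together across genes in H3K27me3 (correlations of 0.64, 0.18 and 0.49), less clearly for replicate 2, and not in H3K4me3 (0.037, −0.044 and 0.033). In H3K27me3, V16D/CTL replicate 2 with V16D/H19 replicate 3 gave 0.27, and V16D/CTL replicate 3 with V16D/H19 replicate 2 gave 0.24. The other pairs of unlike number gave −0.59 to −0.27. Scripts were tested on simulated data. Python 3.11.15, numpy 2.4.6, pandas 2.3.3 and matplotlib 3.10.9 were used.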

Additional observations from a re-analysis of the deposited data

How the results depend on the processing

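The lists hold no read counts, so depth limits what a missing peak can show, and 6 libraries allow no exact p under 0.0312. With a replicate block the covered length differences were 39.1 ± 7.38, −5.18 ± 11.7 and −7.8 ± 4.95 kb for H3K27me3 and 0.623 ± 0.275, 0.775 ± 0.291 and 0.249 ± 0.267 kb for H3K4me3 at CSMD1, CSMD2 and CSMD3 (SD of 3 pairs); with equal groups the block leaves a mean difference as it is by construction and changes its SD alone. Same-numbered libraries were also averaged into 3 sets, a replicate block added after seeing the data. The H3K27me3 levels against all chromosomes were then 2.0, 9.0 and 0.37 points and the pairs −7.0, 1.63 and 8.63 points. The levels of CSMD2 and CSMD3 and the pair of these 2 genes each had an adjusted exact sign-flip p of 0.25, the smallest 3 sets allow. Those with CSMD1 are given with no test.

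A −log10 q of at least 5 left differences of 0 kb for H3K27me3 at CSMD1 and of 0.333 and 0.94 kb for H3K4me3 at CSMD1 and CSMD2. It put H3K27me3 against all chromosomes at −0.0435 (CSMD1), 0.062 (CSMD2) and 0.053 points (CSMD3), and the pairs at −0.106 (CSMD1 minus CSMD2), −0.0965 (CSMD1 minus CSMD3) and 0.00907 points (CSMD2 minus CSMD3), and it left 0 sites called in all libraries of 1 group alone in either mark. With 3 in place of 5, added after seeing the data, the CSMD1 H3K27me3 difference was 0.774 kb, its level −0.0583 points, CSMD1 minus CSMD3 −0.367 points, and 0 such H3K27me3 sites were left for either group. Lists of equal length gave 0.42 kb for H3K4me3 at CSMD1. Scaling to covered length turned the CSMD2 H3K27me3 difference to 7.91 kb. With chromosome 8 as reference the levels were 0.638 (CSMD1) and −0.995 points (CSMD3). Counting deposited H3K27me3 rows by overlap gave 2 lower rows in place of 4. The cause of these changes was not tested.

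Leaving out 1 library in turn, the differences in H3K27me3 were 32.9 to 49.0 (CSMD1), −12.3 to 3.36 (CSMD2) and −11.6 to −4.32 kb (CSMD3). Levels against all chromosomes were 1.68 to 2.28, 8.48 to 9.32 and 0.265 to 0.429 points for H3K27me3 and −0.863 to −0.849, −0.882 to −0.848 and −0.978 to −0.96 for H3K4me3. The pairs were −7.33 to −6.33, 1.29 to 1.9 and 8.21 to 8.93 points. With 5 libraries the exact test cannot go below 0.0625, so no level passed 0.05. Sites called in V16D/H19 alone were 1 to 2 (H3K4me3) and 12 to 29 (H3K27me3), and in V16D/CTL alone 1 to 10 (H3K27me3). The last count was 10 without V16D/CTL replicate 1 or 2, 3 without V16D/CTL replicate 3 and 5 without V16D/H19 replicate 3. With a library fewer the rule for such sites is looser, so these counts could rise without dependence on that library.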
